A study of Mus musculus with 71 samples.

Results

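The genes described here are 10 neuropeptide precursors, Cartpt, Tac1, Tac2, Npy, Sst, Cck, Vip, Nts, Gal and Trh. They were taken by gene symbol from the 37681 genes of 6 tables of bulk RNA-seq, and all 10 symbols were present in every table. The tables hold 71 libraries of the nucleus accumbens (NAc), ventral tegmental area (VTA) and prefrontal cortex (PFC) of adult male and female wild-type C57BL/6J mice, which were 8 weeks old when they entered the study. After operant training for food, which every group received, mice self-administered cocaine (0.7 mg/kg per infusion) or saline in 21 daily sessions, and tissue was taken by micro-punch 1 day or 28 days after the last session. Each of the 12 groups had 6 libraries, except VTA saline at 28 days with 5. The labels do not say that libraries came from separate mice or which regions came from the same mouse, so p-values measure the spread between these libraries.

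Neuropeptides are made as longer precursor proteins, which prohormone convertases cut and other enzymes trim while they are packed into dense-core vesicles. The peptides are released on strong firing and act mainly through G protein-coupled receptors, often alongside GABA or glutamate from the same neuron. In the striatum Tac1 (substance P and neurokinin A) is a gene of the projection neurons that carry D1 dopamine receptors, Npy and Sst are genes of a class of interneurons, and Cartpt, the precursor of cocaine- and amphetamine-regulated transcript peptide, takes its name from its response to psychostimulants.

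Cartpt (ENSMUSG00000021647) lies on the minus strand of chromosome 13 from 100668439 to 100670638 in mm9, the build to which the reads were aligned. Its promoter is shown because the study follows this gene across abstinence, and that of Sst because it was the only other member with the same full element. Both sequences come from RefSeq (GRCm38.p6), are written 5′ to 3′ on the strand of the gene, and have in capitals the cAMP response element TGACGTCA, the site bound by CREB and related factors. The Cartpt sequence covers the 250 bases before the start of the gene (chr13:99900684-99900933, minus strand), and the Sst sequence is a window of 60 bases around the element (chr16:23890859-23890918, minus strand).
Cartpt: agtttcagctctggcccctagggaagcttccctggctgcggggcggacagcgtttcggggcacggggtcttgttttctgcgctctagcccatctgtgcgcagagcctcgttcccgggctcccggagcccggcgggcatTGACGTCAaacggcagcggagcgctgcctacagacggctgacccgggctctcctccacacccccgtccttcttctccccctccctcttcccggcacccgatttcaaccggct
Sst: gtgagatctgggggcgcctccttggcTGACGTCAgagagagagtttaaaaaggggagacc
The element began 112 bases before the start of Cartpt and 48 bases before that of Sst. On either strand it was present in 1.79% of 32851 promoters of the same length (250 bases before to 50 after the start). Its core TGACG, which is part of the full element, was found in 8 of the 10 members and in 20.8% of all promoters. The element AAAGGTCA, to which Nr4a receptors bind, had no match in the 10 member windows and matched 1.51% of all promoters. These are matches of letters and not measured binding.

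Total reads per library ranged from 20971967 to 49700932. Markers of the labelled regions were in place: Slc6a3, the dopamine transporter, stood at 89.8 to 705 RPKM (reads per kilobase of gene, scaled to library depth) in the VTA and at no more than 2.13 RPKM elsewhere. The striatal gene Adora2a had a median of 80.4 RPKM in the NAc, and the cortical gene Slc17a7 one of 446 RPKM in the PFC. Several libraries stood apart from their groups, and libraries at 28 days are numbered here as in their table columns, not as in the sample titles. In the PFC, saline library 4 at 28 days had a summed level of 9 striatal markers of 857 RPKM, against 62.1 to 98.0 RPKM in the other 23 PFC libraries. In the VTA, the sum of 10 hypothalamic markers was 1385 RPKM in saline library 1 at 28 days, 415, 734 and 144 RPKM in cocaine libraries 1, 2 and 6 at 28 days, and 602 RPKM in cocaine library 6 at 1 day, against 5.05 to 43.1 RPKM in the other 18. Those markers include Pmch and Hcrt, precursors of melanin-concentrating hormone and of the orexins, which are made in the lateral hypothalamus. No marker of either list was at 0 throughout a group of those regions. Saline library 6 of the VTA at 1 day stood apart in Cartpt, as given below. In bulk tissue, fewer cells of a type and less RNA per cell cannot be told apart.

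In saline libraries the members differed widely in level within a region, and each region had its own order. In the NAc at 28 days Sst was highest, with a median of 394 RPKM, followed by Tac1 at 238 RPKM and Npy at 94.3 RPKM, with ranges that did not overlap. Cartpt, Cck and Nts came next at 17.8, 16.5 and 15.5 RPKM, and their ranges overlapped. Tac2, Trh and Vip followed at 7.36, 6.32 and 1.61 RPKM with overlapping ranges, and Gal was lowest at 0.428 RPKM. In the PFC at 28 days Sst (383 RPKM), Cck (258 RPKM), Npy (104 RPKM) and Vip (22.5 RPKM) led with ranges apart from each other, and Gal was at 0.0371 RPKM. In the VTA Sst was also highest, at 88.5 RPKM, and every neighbour below it in the order overlapped the one above. At 1 day the same 3 genes led the NAc, with Tac1 (255 RPKM) above Sst (164 RPKM). The plot of saline levels shows these orders.

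**Figure D1:**
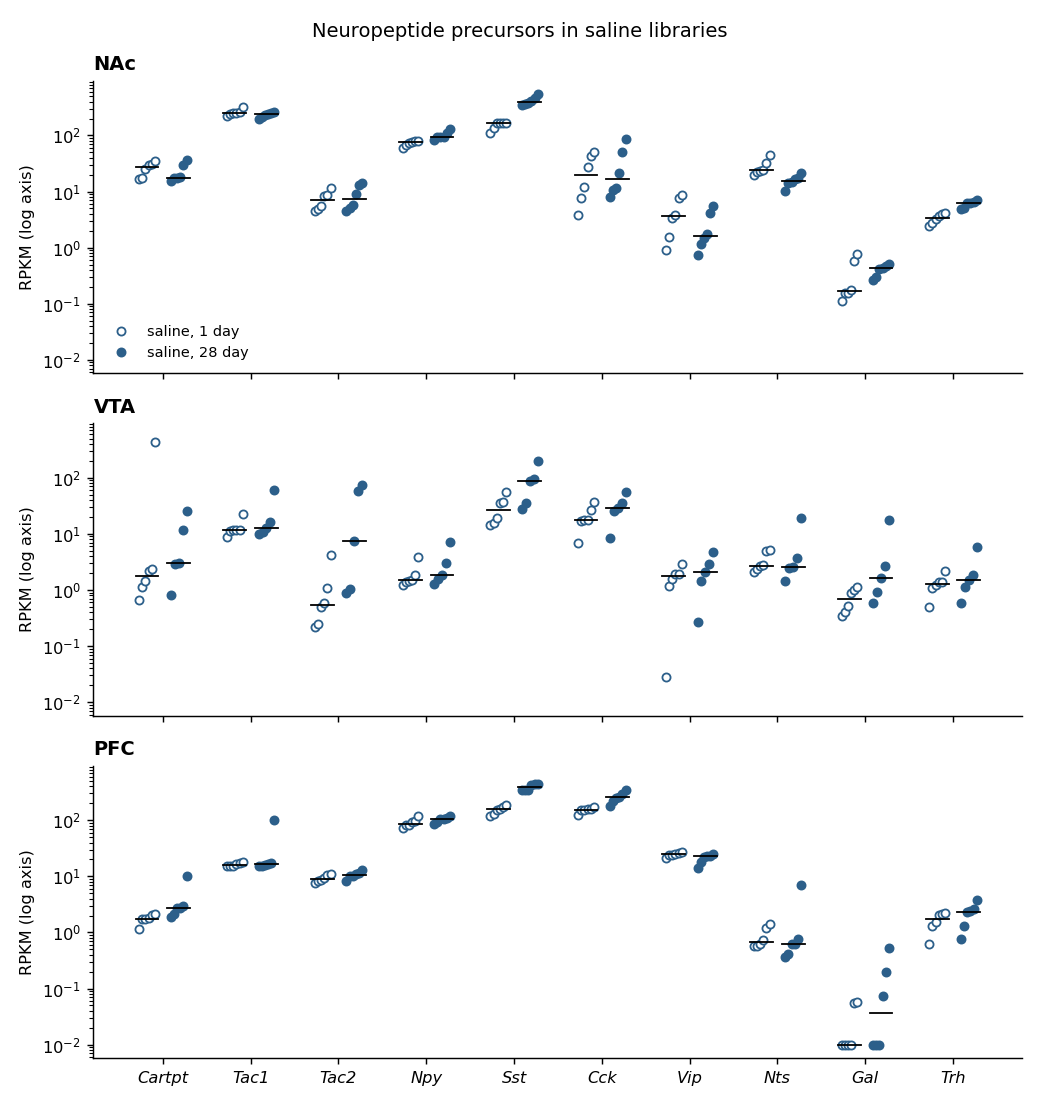
RPKM (log axis) of the 10 precursors in each saline library of NAc, VTA and PFC at 1 day (open circles) and 28 days (filled circles), with black bars at the medians and libraries at 0 drawn at the foot of the axis. Npy lies at 83.7 to 130.2 RPKM in the NAc and at 1.26 to 7.10 RPKM in the VTA at 28 days, and single VTA and PFC libraries stand far above their groups for Cartpt, Tac1, Nts and Gal.

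Levels in saline libraries at 28 days were compared between regions with edgeR's quasi-likelihood test, in which region and table cannot be told apart. Of the 10 members, 5 differed between NAc and VTA at an adjusted p under 0.05, where 62.5% of all genes tested did. Between NAc and PFC 6 differed, against 40.7% of all genes, and between VTA and PFC 5, against 57.8%, so the members' shares lay near those of all genes. Without VTA saline library 1 and PFC saline library 4, an exclusion chosen after seeing the data, the counts were 7, 7 and 7. No shares of all genes are given for that fit.

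The comparison of cocaine with saline within each region and time point asked which precursors differed during abstinence. In the NAc at 28 days no member reached an adjusted p under 0.05 (edgeR), and neither did any of the 16295 genes tested (0% called). At an unadjusted p under 0.05 there were 3 of 10 members there, Cartpt and Nts higher and Trh lower in cocaine, against 6.76% of all genes. At 1 day in the NAc there were 0 of 9 members at either threshold, against 0.0126% of all genes by adjusted p and 4.01% by unadjusted p. DESeq2 also called 0 members in both NAc comparisons, with 0 at 1 day and 3 at 28 days at an unadjusted p under 0.05.

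For the VTA at 1 day limma on log2(RPKM + 0.1) called 0 of 10 members, against 0.0665% of all genes, and 2 had an unadjusted p under 0.05, Nts and Tac2, both higher in cocaine, against 15.7%. DESeq2 on whole reads recovered from the RPKM values, a fit that was not planned, called those 2 members. The planned edgeR fit on the same reads called 0, with 5 at an unadjusted p under 0.05. At 28 days in the VTA edgeR called 0 members and 0% of all genes, with 0 members at an unadjusted p under 0.05 against 11.5% of all genes. Without VTA saline library 1 that count of members was 5, and the 11.5% does not belong to that fit. All-gene shares belong to the first fit named for each comparison, and none is given for the alternatives or the fits without a library. In the PFC limma called 0 of 9 members at 1 day, against 0.00693% of all genes, and only Tac2 had an unadjusted p under 0.05, against 3.78%. In the PFC at 28 days edgeR called 0 of 9 members and 0% of all genes, and 4 members had an unadjusted p under 0.05, against 5.66%. Without PFC saline library 4 that count was 1. DESeq2 called 0 members in the VTA and PFC at 28 days, with 0 and 3 at an unadjusted p under 0.05. Gal was too low to be tested in the NAc at 1 day and in the PFC. The median log2 fold change of the members was 0.07 in the NAc at 28 days, 0.78 in the VTA at 1 day and 0.45 in the VTA at 28 days, beside medians of 0.00, 0.03 and -0.03 over all genes tested. Cell type markers also differed between the VTA groups at 1 day. The sum of 10 midbrain dopamine neuron markers was 656 to 1551 RPKM in cocaine libraries (median 1204 RPKM) and 1089 to 2489 RPKM in saline libraries (median 1952 RPKM), and that of 6 microglia markers was 65.3 to 109 RPKM and 100.4 to 151 RPKM. No marker of these lists was at 0 throughout a VTA group, and their part in the members' values was not tested. Fold changes in the VTA and PFC at 1 day are on the log2(RPKM + 0.1) scale, which understates those of low genes.

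**Figure D2:**
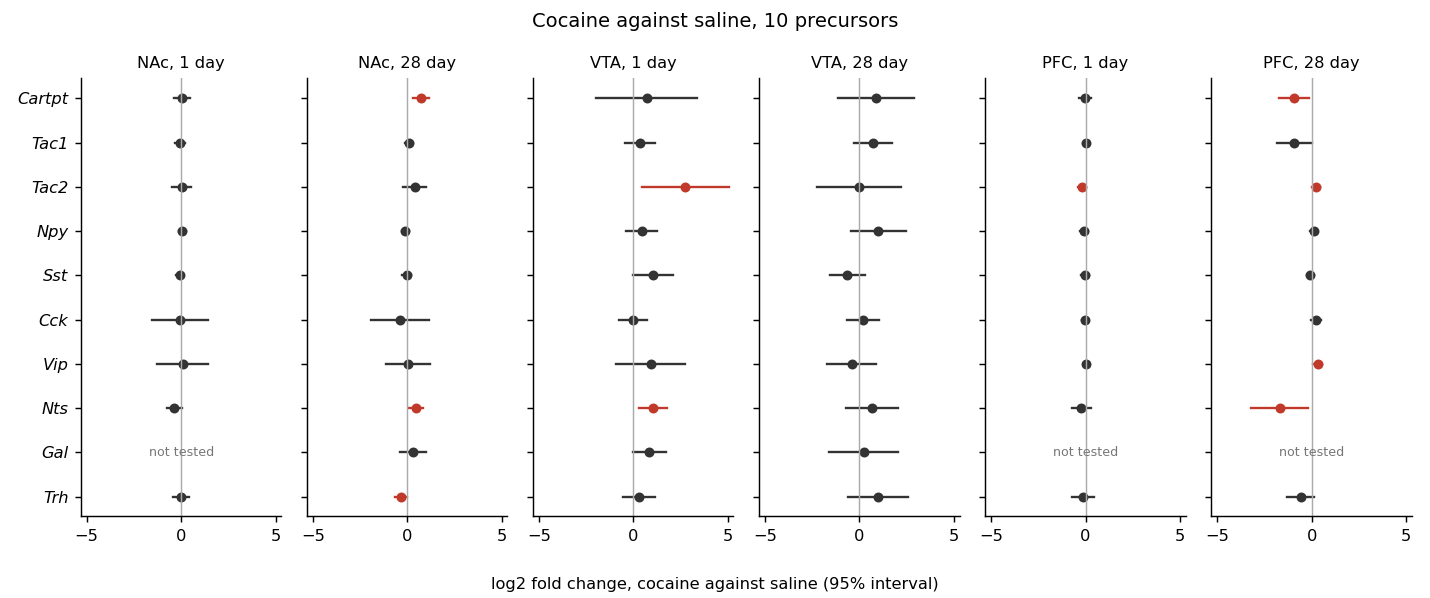
Log2 fold change of cocaine against saline (points) with its 95% interval (lines) for the 10 precursors in 6 comparisons, in red where the unadjusted p was under 0.05. No adjusted p was under 0.05, and the intervals are widest in the VTA, where that of Tac2 at 1 day runs from 0.45 to 5.07.

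Cartpt in the NAc at 28 days ranged from 27.5 to 43.5 RPKM in cocaine libraries, with a median of 40.1 RPKM, and from 15.6 to 36.4 RPKM in saline libraries, with a median of 17.8 RPKM. The groups overlapped: 4 cocaine libraries lay above every saline library, 4 saline libraries lay below every cocaine library, and saline libraries 1 and 2, at 36.4 and 29.3 RPKM, lay among the lower cocaine libraries. Cartpt differed by 0.73 on the log2 scale (SE 0.19), or 1.66-fold, with an unadjusted p of 0.00154 that ranked 36 of 16295 and an adjusted p of 0.592 in edgeR. DESeq2 gave an adjusted p of 0.0591, and the other alternatives that kept every library gave 0.253 to 0.704. Leaving out each library in turn gave log2 fold changes of 0.65 to 0.90, with unadjusted p from 4.68e-05 to 0.00443.

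At 1 day Cartpt in the NAc did not separate the groups. Cocaine libraries ranged from 17.6 to 37.0 RPKM (median 25.3 RPKM) and saline libraries from 16.4 to 34.8 RPKM (median 27.7 RPKM), a log2 fold change of 0.04 with a 95% interval of -0.37 to 0.44. The cocaine effect was larger at 28 days than at 1 day by 0.71 on the log2 scale (SE 0.29, unadjusted p = 0.0198, adjusted p = 0.928 in edgeR), and 2 of 9 members, Cartpt and Nts, passed an unadjusted p of 0.05 in that test of interaction, against 5.27% of all genes. None passed by adjusted p, against 0.0181% of all genes, and DESeq2 gave the same 2 counts. Between the time points the saline median was lower at 28 days (17.8 against 27.7 RPKM) and the cocaine median higher (40.1 against 25.3 RPKM), with overlapping ranges in each arm. Time points came in separate tables, so time and table cannot be told apart.

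**Figure D3:**
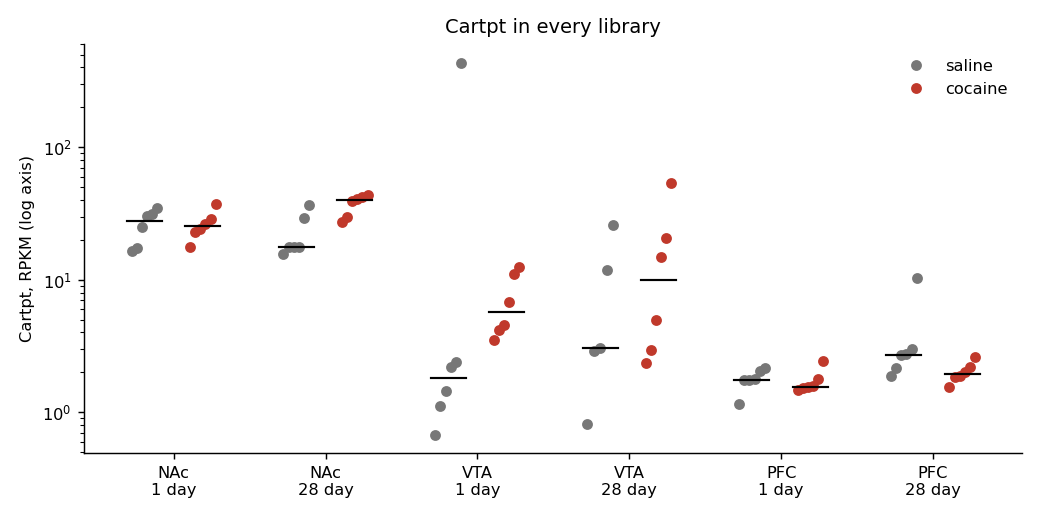
Cartpt RPKM (log axis) in each of the 71 libraries by region and time point, saline in grey and cocaine in red, with black bars at group medians. Cocaine and saline medians are 40.1 and 17.8 RPKM in the NAc at 28 days, and 1 saline library of the VTA at 1 day stands at 435 RPKM.

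In the VTA at 1 day Cartpt ranged from 3.54 to 12.5 RPKM in cocaine libraries (median 5.71 RPKM) and from 0.676 to 435 RPKM in saline libraries (median 1.81 RPKM). All 6 cocaine libraries lay above 5 of the 6 saline libraries, whose highest was 2.4 RPKM, and below saline library 6 at 435 RPKM. With every library the log2 fold change was 0.71 (SE 1.24, adjusted p = 0.842 in limma), and edgeR on recovered reads gave -3.40. Without saline library 6 it was 2.07, with an unadjusted p of 0.00015 and an adjusted p of 0.0969 in limma. That library also held Ucn, the urocortin precursor, at 10.4 RPKM, where every other VTA library had at most 1.35 RPKM. Ucn was looked up after its value was seen, and as background it is made together with CART in the Edinger-Westphal nucleus, near the VTA. The part of that nucleus in the value was not tested.

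At 28 days in the VTA Cartpt was at 26.1, 2.90, 3.06, 11.9 and 0.816 RPKM in the 5 saline libraries and at 2.34 to 53.7 RPKM in cocaine libraries (median 9.95 RPKM). The groups overlapped, and the highest library of each group was among those with high hypothalamic markers. Cartpt had a log2 fold change of 0.87 (95% interval -1.15 to 2.90, adjusted p = 0.68 in edgeR). In the PFC Cartpt was low at both times, at 1.15 to 3.01 RPKM in every library but saline library 4 at 28 days, which had 10.3 RPKM. At 28 days the log2 fold change was -0.92 (unadjusted p = 0.026, adjusted p = 0.842 in edgeR), and without that library it was -0.29 (unadjusted p = 0.0858). Across regions Cartpt was higher in NAc than in PFC by 2.51 on the log2 scale (SE 0.62, adjusted p = 0.00323 in edgeR). The difference between NAc and VTA was 1.44 (adjusted p = 0.0532), and 2.36 (adjusted p = 0.000386) without the 2 libraries left out above. With saline libraries at 1 day, among them the VTA library at 435 RPKM, the sign was the opposite, -1.43 (unadjusted p = 0.20).

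Tac1 encodes the precursor of substance P and neurokinin A, ligands of the receptors Tacr1 and Tacr2. It was higher in NAc than in VTA by 3.50 on the log2 scale (SE 0.60, adjusted p = 6.03e-05) and higher than in PFC by 2.91 (SE 0.54, adjusted p = 0.000288, edgeR). Between cocaine and saline its NAc levels differed little: medians at 1 day were 245.5 and 255 RPKM and at 28 days 246 and 238 RPKM, with overlapping ranges. The 95% intervals of the log2 fold change were -0.33 to 0.22 at 1 day and -0.10 to 0.29 at 28 days.

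In the VTA at 28 days Tac1 stood at 61.1, 10.7, 16.4, 13 and 9.84 RPKM in the saline libraries and at 21.9 to 56.0 RPKM in cocaine libraries (median 35.9 RPKM). Every cocaine library lay above saline libraries 2 to 5 and below saline library 1. With every library it differed by 0.73 on the log2 scale (SE 0.46, unadjusted p = 0.14, adjusted p = 0.517 in edgeR), and without saline library 1 it was 1.57 (unadjusted p = 5.28e-05, adjusted p = 0.0965). All 4 libraries over 100 RPKM of hypothalamic markers at 28 days were also left out, an exclusion chosen after seeing the data. In the 3 cocaine and 4 saline libraries that remained, Tac1 was higher by 1.22 (SE 0.21, unadjusted p = 0.00055, adjusted p = 0.754). In those 7 libraries the hypothalamic sum was 28.6 to 43.1 RPKM in cocaine and 8.87 to 29.3 RPKM in saline, with saline library 4 between 2 of the cocaine libraries. Their summed serotonin neuron markers were 2.81 to 86.9 RPKM in cocaine and 55.2 to 159 RPKM in saline, and the part of these cells in the difference was not tested. At 1 day cocaine libraries spanned 6.73 to 40.5 RPKM around a saline range of 8.86 to 22.2 RPKM, a log2 fold change of 0.37 (adjusted p = 0.685 in limma).

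In the PFC at 28 days saline library 4 held Tac1 at 98.8 RPKM, where the other 5 saline libraries had 15.2 to 17.0 RPKM and cocaine libraries 14.7 to 17.6 RPKM. Apart from that library the groups overlapped closely. Tac1 had a log2 fold change of -0.91 (unadjusted p = 0.0558, adjusted p = 0.842 in edgeR) with it and -0.01 (unadjusted p = 0.915) without it. At 1 day it was 0.02 (95% interval -0.15 to 0.19).

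Tac2 encodes the precursor of neurokinin B, the ligand of Tacr3. Its levels varied widely in the VTA: at 1 day it ranged from 0.218 to 4.14 RPKM in saline libraries (median 0.536 RPKM) and from 0.638 to 42.5 RPKM in cocaine libraries (median 7.20 RPKM). Cocaine libraries 3, 4 and 6, at 34.8, 42.5 and 13.1 RPKM, lay above every saline library, and the other 3 lay within the saline range. Tac2 had a log2 fold change of 2.76 (SE 1.07, unadjusted p = 0.0229, adjusted p = 0.253 in limma). The unplanned DESeq2 fit on recovered reads gave 3.72 (adjusted p = 0.020). Leaving out each library in turn gave 2.15 to 3.32 in limma, with adjusted p of 0.147 to 0.43.

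At 28 days in the VTA Tac2 was at 74.4, 1.03, 0.872, 7.56 and 57.4 RPKM in saline libraries and at 2.50 to 50.3 RPKM in cocaine libraries. The ranges overlapped, and 2 saline libraries lay above every cocaine library. Between the groups Tac2 differed by -0.02 on the log2 scale (95% interval -2.22 to 2.18). Of these 2 libraries, saline library 1 had the highest hypothalamic sum and saline library 5 one of 13.1 RPKM.

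Tac2 in the NAc at 28 days had medians of 11.1 RPKM in cocaine and 7.36 RPKM in saline libraries, with a log2 fold change of 0.40 (95% interval -0.20 to 0.99). In the PFC it was 7.31 to 9.19 RPKM in cocaine and 7.58 to 11.2 RPKM in saline libraries at 1 day, where 3 cocaine libraries lay below all saline libraries. Its log2 fold change there was -0.21 (SE 0.10, unadjusted p = 0.0448, adjusted p = 0.913 in limma). At 28 days the sign was the opposite, 0.22 (SE 0.10, unadjusted p = 0.045, adjusted p = 0.842 in edgeR), and without saline library 4, the lowest of its group at 8.32 RPKM, it was 0.16 (unadjusted p = 0.10). No region contrast of Tac2 at 28 days passed the adjusted threshold with every library.

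Npy and Sst, neuropeptide Y and somatostatin, are made together in a class of striatal and cortical interneurons that also makes nitric oxide. Npy had the largest difference between regions of any member: at 28 days it ranged from 83.7 to 130.2 RPKM in NAc saline libraries and from 86.3 to 118 RPKM in PFC saline libraries, against 1.26, 1.55, 1.83, 3.00 and 7.10 RPKM in the VTA. It was higher in NAc than in VTA by 5.23 on the log2 scale (SE 0.32, adjusted p = 2.2e-10 in edgeR), and NAc and PFC differed by -0.06 (95% interval -0.55 to 0.43). Sst was at 354 to 539.9 RPKM in the NAc and 341 to 448 RPKM in the PFC, a difference of 0.06 (95% interval -0.60 to 0.72). In the VTA Sst was at 88.5, 36.0, 96.8, 197 and 27.6 RPKM, lower than in NAc by 2.35 on the log2 scale (SE 0.35, adjusted p = 1.54e-05).

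Cocaine and saline libraries overlapped for Npy and Sst in every region and time point. In the NAc and PFC their 8 log2 fold changes lay between -0.10 and 0.12, with standard errors of 0.08 to 0.11. In the VTA at 1 day Sst was at 108, 106, 40.5, 19.7, 109 and 24.9 RPKM in cocaine libraries 1 to 6 and at 14.5 to 56.6 RPKM in saline libraries. Cocaine libraries 1, 2 and 5 thus stood above all saline libraries and the other 3 among them, with a log2 fold change of 1.04 (95% interval -0.02 to 2.11, adjusted p = 0.329 in limma). Those 3 libraries had the lowest Tac2 of the cocaine group, at 0.638, 1.33 and 0.917 RPKM. At 28 days in the VTA the Sst value was -0.64 (95% interval -1.56 to 0.27) and that of Npy 1.00 (95% interval -0.44 to 2.45).

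Sst also differed between the time points. In the NAc its median was 164 RPKM at 1 day and 394 RPKM at 28 days in saline libraries, and 140.0 and 413 RPKM in cocaine libraries, ratios of 2.402 and 2.95. In the PFC the ratios were 2.47 in saline and 2.45 in cocaine libraries. In these 4 pairs every library at 28 days lay above every library at 1 day. The same held for Cck in the PFC in both arms, with ratios of 1.68 and 1.99, for Npy and Trh in NAc saline libraries, with ratios of 1.25 and 1.86, and for Tac2 in PFC cocaine libraries, with a ratio of 1.66. The largest ratio of all, 14.1 for Tac2 in VTA saline libraries, came with overlapping ranges. The share of all genes with ranges apart in this way is not given. It was not confined to members: in NAc saline libraries Adora2a was at 38.0 to 65.6 RPKM at 1 day and 111 to 161 RPKM at 28 days. The ranges of Drd2 there overlapped. The ratios were not tested, since time and table cannot be told apart.

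Cck, the cholecystokinin precursor, is abundant in cortical neurons and is also made by many midbrain dopamine neurons, and Vip, vasoactive intestinal peptide, is made by a class of cortical interneurons. Both were higher in PFC at 28 days. Cck ranged from 182 to 339 RPKM there, against 8.04 to 85.6 RPKM in NAc saline libraries, a log2 difference of -3.11 for NAc against PFC (SE 0.53, adjusted p = 0.000126 in edgeR). Vip ranged from 14.0 to 24.6 RPKM in the PFC and from 0.727 to 5.55 RPKM in the NAc, a log2 difference of -3.15 (SE 0.49, adjusted p = 5.71e-05). VTA against PFC gave -3.21 for Cck and -3.32 for Vip (adjusted p = 0.000105 and 3.67e-05), and NAc against VTA gave 0.10 and 0.17.

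Within the NAc groups Cck and Vip varied more than 7-fold between libraries of the same group, and cocaine and saline ranges overlapped at both times. For Cck the log2 fold change was -0.08 (95% interval -1.56 to 1.41) at 1 day and -0.39 (95% interval -1.92 to 1.14) at 28 days, so changes of several-fold were not detectable. Over all 24 NAc libraries Cck and Vip followed the summed level of cortical excitatory neuron markers (9 of 10 listed markers matched). On the log scale, with the mean of each group removed, Pearson's r was 0.946 and 0.955 and Spearman's rho 0.947 and 0.941. Without the 2 libraries farthest from the median of the marker sum so centred, r was 0.941 and 0.945. The sum was 82.6 to 394 RPKM in cocaine and 102 to 303 RPKM in saline libraries at 1 day, and 74.0 to 285 and 107 to 271 RPKM at 28 days, with no marker at 0 throughout a group. These libraries share depth, dissection and table, and the values are given as a description.

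**Figure D4:**
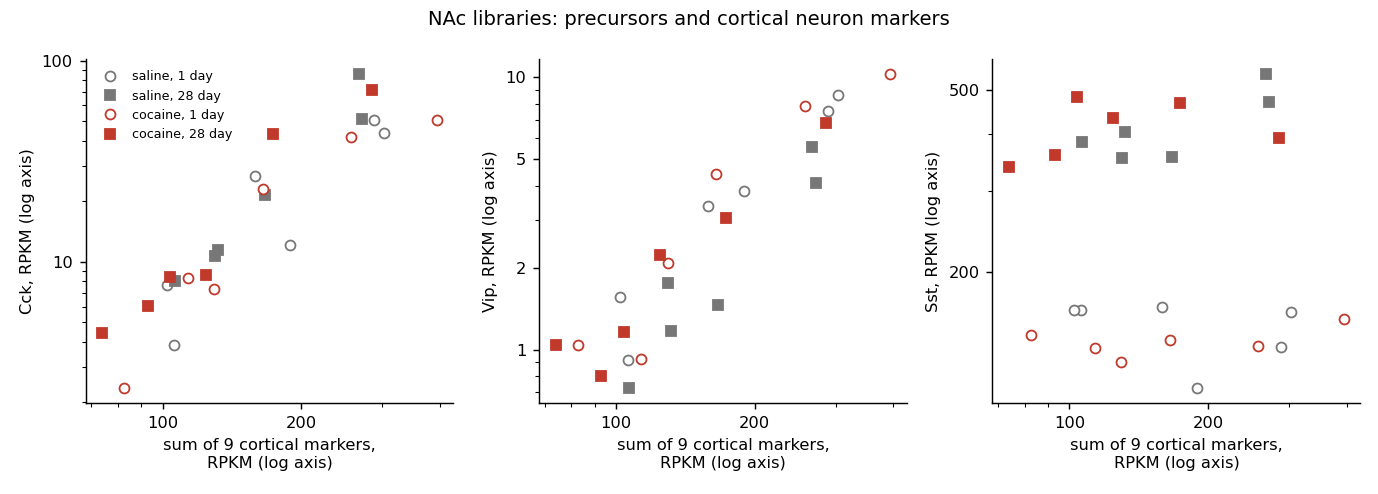
RPKM of Cck, Vip and Sst (log axes) against the summed RPKM of 9 cortical excitatory neuron markers in 24 NAc libraries, saline in grey and cocaine in red, 1 day as open circles and 28 days as filled squares. Cck and Vip climb with the marker sum, while Sst separates by time point. Correlations with the mean of each group removed, and so not those of the plotted points, were 0.946, 0.955 and 0.254.

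With the cortical marker sum as a covariate, an alternative added after seeing the data, the standard errors of Cck and Vip in the NAc at 28 days fell from 0.72 to 0.18 and from 0.55 to 0.18. The log2 fold change of Cck was then 0.27 (adjusted p = 0.672) and that of Vip 0.57 (unadjusted p = 0.0066, adjusted p = 0.33 in edgeR). At 1 day the covariate left Cck at -0.08 and Vip at 0.06. The value for Cartpt at 28 days with the covariate was 0.81 (SE 0.19, adjusted p = 0.253). The correlation of Cartpt with the marker sum, with group means removed, was 0.01.

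In the PFC at 28 days Vip ranged from 22.5 to 28.6 RPKM in cocaine libraries and from 14.0 to 24.6 RPKM in saline libraries, with 4 cocaine libraries above every saline library. The log2 fold change was 0.31 (SE 0.11, unadjusted p = 0.0151, adjusted p = 0.842 in edgeR). Saline library 4 was the lowest for Vip, at 14.0 RPKM, and for Cck, at 182 RPKM, and without it the Vip value was 0.22 (unadjusted p = 0.0154, adjusted p = 0.967). Cck differed by 0.23 (95% interval -0.03 to 0.48) at 28 days and by -0.04 (95% interval -0.20 to 0.12) at 1 day. In the VTA Cck followed the summed midbrain dopamine neuron markers over 23 libraries, with r = 0.563 and rho = 0.594 after group means were removed. Its cocaine and saline medians there were 19.6 and 17.8 RPKM at 1 day.

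Nts encodes the precursor of neurotensin and neuromedin N, peptides found in projections to and within the midbrain. It was higher in NAc than in PFC by 3.19 on the log2 scale (SE 0.74, adjusted p = 0.00198 in edgeR). In the VTA at 1 day it ranged from 3.31 to 14.9 RPKM in cocaine libraries (median 6.50 RPKM) and from 2.13 to 5.17 RPKM in saline libraries (median 2.72 RPKM). Of the cocaine libraries 3 lay above every saline library, and 4 saline libraries lay below every cocaine library. The log2 fold change was 1.04 (SE 0.34, unadjusted p = 0.00855, adjusted p = 0.194 in limma). The unplanned DESeq2 fit on recovered reads gave 1.11 (adjusted p = 0.0373). Leaving out each library in turn gave 0.81 to 1.24 in limma.

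The lowest of these came without cocaine library 6, which held the highest Nts and a hypothalamic sum of 602 RPKM, and its adjusted p was 0.212. The hypothalamic sum ranged from 7.58 to 602 RPKM in cocaine and from 5.05 to 12.9 RPKM in saline libraries at 1 day. Over the 23 VTA libraries, with group means removed, Nts followed that sum with r = 0.876 and rho = 0.809 (r = 0.773 without the 2 farthest). This was closer than for Tac1 (0.73 and 0.663) or Gal (0.695 and 0.571). The difference between these correlations was not tested.

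**Figure D5:**
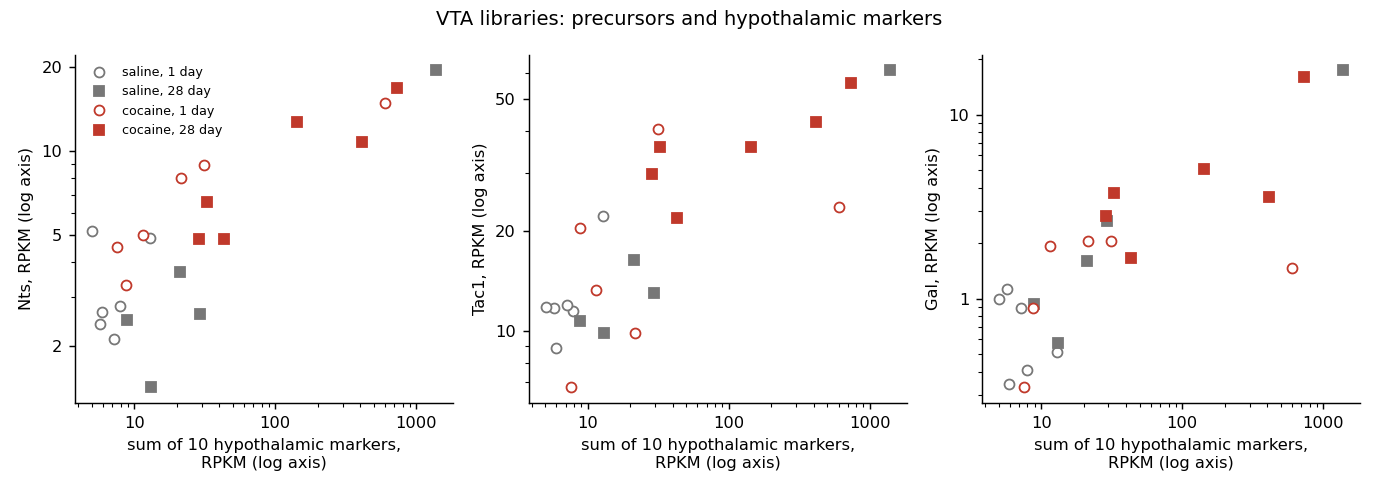
RPKM of Nts, Tac1 and Gal (log axes) against the summed RPKM of 10 hypothalamic markers in 23 VTA libraries, saline in grey and cocaine in red, 1 day as open circles and 28 days as filled squares. The 5 libraries over 100 RPKM of markers are 4 cocaine libraries and 1 saline library at 28 days, and they include the highest levels of all 3 genes.

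At 28 days in the VTA Nts stood at 19.5, 2.48, 3.69, 2.60 and 1.42 RPKM in saline libraries and at 4.85 to 16.9 RPKM in cocaine libraries (median 8.70 RPKM). As for Tac1, every cocaine library lay above saline libraries 2 to 5 and below saline library 1. The log2 fold change was 0.66 (adjusted p = 0.647 in edgeR) with every library, 1.89 (unadjusted p = 0.000835, adjusted p = 0.103) without saline library 1, and 1.08 (SE 0.29, unadjusted p = 0.00674, adjusted p = 0.754) without all 4 libraries with high hypothalamic markers. The exclusion of those 4 was chosen after seeing the data.

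In the NAc Nts had opposite signs at the time points. At 1 day cocaine libraries ranged from 18.4 to 24.9 RPKM (median 21.3 RPKM) and saline libraries from 19.9 to 45.1 RPKM (median 24.04 RPKM), a log2 fold change of -0.36 (unadjusted p = 0.0678). Without saline library 4, at 45.1 RPKM, it was -0.15 (unadjusted p = 0.223). At 28 days cocaine libraries ranged from 15.3 to 29.0 RPKM (median 20.1 RPKM) and saline libraries from 10.0 to 21.2 RPKM (median 15.5 RPKM), a log2 fold change of 0.46 (SE 0.16, unadjusted p = 0.0144, adjusted p = 0.655 in edgeR). The ranges overlapped at both times. The test of the difference between the effects gave 0.83 (SE 0.26, unadjusted p = 0.00366, adjusted p = 0.832 in edgeR), with 0.61 to 0.93 when each library was left out in turn. In the PFC at 28 days saline library 4 held Nts at 6.98 RPKM against 0.364 to 0.772 RPKM in the other saline libraries, and the log2 fold change of -1.70 (unadjusted p = 0.0323, adjusted p = 0.842) became -0.12 (unadjusted p = 0.701) without it.

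Gal, the galanin precursor, is known from hypothalamic and brainstem neurons. It was the only member that passed the adjusted threshold as higher in the VTA than in both other regions at 28 days, by 3.40 over NAc (-3.40 for NAc against VTA, SE 0.80, adjusted p = 0.00134) and by 4.79 over PFC (SE 0.90, adjusted p = 0.000196 in edgeR). Much of the first difference was carried by VTA saline library 1: the saline libraries stood at 17.4, 0.933, 1.61, 2.65 and 0.575 RPKM, and without it and PFC saline library 4 the NAc value was -1.75 (adjusted p = 0.00326). In the PFC Gal had 0 to 15 reads a library at 28 days and 0 to 5 at 1 day. It was too low to be tested within the PFC and passed the filter of the joint fit through the other regions. The size and p of its difference from PFC thus rest on counts near 0. Leaving out each library in turn gave 3.14 to 5.89 for VTA against PFC.

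Between cocaine and saline Gal in the VTA at 1 day ranged from 0.329 to 2.07 RPKM and from 0.342 to 1.12 RPKM. Cocaine libraries 2, 3, 4 and 6 lay above every saline library and library 5 below them all, with a log2 fold change of 0.85 (unadjusted p = 0.0566, adjusted p = 0.333 in limma). At 28 days the value was 0.23 (95% interval -1.59 to 2.05) with every library and 0.91 (unadjusted p = 0.104) without the 4 libraries with high hypothalamic markers. That exclusion was chosen after seeing the data. Cocaine library 2 and saline library 1, at 16.0 and 17.4 RPKM, were the highest.

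Trh encodes the precursor of thyrotropin-releasing hormone. It was higher in NAc than in VTA by 1.58 on the log2 scale (SE 0.45, adjusted p = 0.00523) and than in PFC by 1.41 (SE 0.42, adjusted p = 0.0116, edgeR). In the NAc at 28 days Trh ranged from 3.13 to 5.87 RPKM in cocaine libraries (median 4.95 RPKM) and from 4.85 to 7.20 RPKM in saline libraries (median 6.32 RPKM). The groups overlapped, with 3 cocaine libraries below every saline library. The log2 fold change was -0.33 (SE 0.14, unadjusted p = 0.0347, adjusted p = 0.692 in edgeR), and leaving out each library gave -0.40 to -0.23. At 1 day it was -0.01 (95% interval -0.42 to 0.39), and in the VTA at 28 days it was 0.97 (95% interval -0.61 to 2.55), with cocaine library 2 at 14.4 RPKM and the other 5 at 0.752 to 3.22 RPKM.

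Likeness to other genes was described over the 24 NAc libraries by the correlation of log levels among 16612 genes. The mean of each group of treatment and time point was removed before this and the other correlations below. For Cck the nearest gene was the cortical factor Neurod2 (r = 0.986), and for Npy it was Sst (r = 0.802). Cartpt was nearest to Nnat (r = 0.859), Sema4b (r = 0.848) and Stard5 (r = 0.84), and among the members to Tac2 (r = 0.585). Tac1 ran against Sst (r = -0.702, rho = -0.724) and with the summed striatal markers (r = 0.692), and Tac2 ran with septal markers (r = 0.732). In the PFC Tac1 followed the striatal marker sum with r = 0.968 and rho = 0.779 over 24 libraries, and r without the 2 farthest libraries was 0.787. With group means removed, a difference in mean between time points or treatments does not enter these values.

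The genes that act with these precursors were counted from lists chosen with earlier results of these data known. In the 6 comparisons of cocaine with saline none of 25 receptors, 18 processing and vesicle genes, 10 peptidases and 36 other precursors had an adjusted p under 0.05, with edgeR or limma. At an unadjusted p under 0.05 the receptors gave 1 of 21 tested in the NAc at 1 day, 2 of 21 at 28 days, 5 of 16 and 6 of 21 in the VTA at those times, and for the PFC 1 of 14 and 3 of 18. The shares of all genes tested, beside which this and the other 3 lists stand, were 4.01% at 1 day and 6.76% at 28 days for NAc, 15.7% and 11.5% for VTA, 3.78% and 5.66% for PFC. Of 18 processing genes 0 at 1 day and 3 at 28 days did so in the NAc, 1 and 3 did in the VTA, and the PFC gave 0 and 1. In the NAc at 28 days all 3 such processing genes were higher in cocaine, with a list median of 0.05 on the log2 scale beside 0.00 over all genes. The peptidases gave 0 and 1 of 10 in the NAc, 1 and 2 in the VTA and 0 in the PFC at either time. The other precursors gave 1 of 14 and 2 of 13 in the NAc, 6 of 19 and 3 of 19 in the VTA, and 0 of 12 and 1 of 14 in the PFC.

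Among receptors, Sort1, which binds neurotensin, was the highest of the Nts receptors in NAc and PFC, with saline medians of 73.3 and 93.6 RPKM, and Ntsr2 the highest in the VTA, with 104 RPKM. For CART the candidate receptor Gpr160 stood at medians of 0.336 to 0.421 RPKM in the 3 regions. Tacr1, the substance P receptor, had a median of 8.58 RPKM in NAc, where Tac1 was highest, and Cckbr, the main brain receptor of cholecystokinin, one of 32.2 RPKM in PFC, where Cck was highest. Not every pair matched by region: Galr1 had 0.278 RPKM in the VTA, where Gal was highest, and 0.397 RPKM in the NAc. The highest tachykinin receptor in the VTA was Tacr3, at 13.6 RPKM. In the VTA at 1 day Sstr1 was lower in cocaine by 0.75 on the log2 scale (log2 fold change -0.75, SE 0.20, unadjusted p = 0.00292, adjusted p = 0.134 in limma) and Ntsr2 by 0.33 (log2 fold change -0.33, SE 0.10, unadjusted p = 0.00554, adjusted p = 0.171). These were the 2 lower receptors at an unadjusted p under 0.05 there, and 3 were higher. Among the higher were Vipr2 (log2 fold change 0.59, unadjusted p = 0.0116, adjusted p = 0.211) and Npy1r (0.53, unadjusted p = 0.0299, adjusted p = 0.268). In the NAc at 28 days Trhr, the receptor of thyrotropin-releasing hormone, had a log2 fold change of 0.53 (SE 0.23, unadjusted p = 0.0365, adjusted p = 0.696 in edgeR), opposite in sign to that of Trh.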

How the data were processed

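RNA-seq libraries of NAc, VTA and PFC were used from 6 tables, 4 of counts and 2 of RPKM. The authors aligned reads to mm9 with STAR 2.4.1d and deposited counts of reads per gene for the NAc at both times and for the VTA and PFC at 28 days. The other pair of tables, VTA and PFC at 1 day, was deposited as RPKM by the authors. Every RPKM value was a whole multiple of 1 read (23806 and 23353 genes, 100% within 0.001 reads), so whole reads and gene lengths were recovered, and levels in the count tables were scaled to RPKM with those lengths (the recovered lengths of 162 genes were raised by a whole factor to match an annotated transcript). Counts were tested with edgeR 4.0.16 (quasi-likelihood, TMM, filterByExpr with a minimum count of 10) and RPKM with limma 3.58.1 on log2(RPKM + 0.1) where a gene averaged 0.5 RPKM or more, with Benjamini-Hochberg adjustment over all genes tested. DESeq2 1.42.0, other scalings, filters and pseudocounts, a block for the replicate number and the omission of each library in turn were alternatives. DESeq2 on the recovered reads was not among the planned ones. All 10 members were named in every comparison, and receptors by the highest saline level per peptide. The members and lists were chosen with earlier results of these data known. Tables also held 30 columns of no sample used here and the authors' fold changes and p-values, none of which were used. Columns at 28 days name a group and carry numbers that match none of the sample titles. No replicate pair matched within sampling noise (lowest chi-square per degree of freedom 4.59). Scripts were tested on simulated data.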

Additional observations from a re-analysis of the deposited data

Results flagged for a closer look

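In 120 groups of libraries (10 genes in 12 groups), 18 had a highest library whose gap to the next took up more of the group's range than the 95% critical value of Dixon's test allows. For independent groups of normally distributed values the test gives about 1 in 20, or 6 of 120. These were RPKM values not on the log scale, and the same libraries recur for several genes. The 6 is thus not an expectation for these groups.

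Of these, 11 were in the VTA. At 1 day they were Cartpt at 435 RPKM and Npy at 3.88 RPKM in saline library 6, Tac1 at 22.2 RPKM in saline library 1 and Tac2 at 4.14 RPKM in saline library 5. At 28 days saline library 1 stood apart for Tac1 (61.1 RPKM), Nts (19.5 RPKM), Gal (17.4 RPKM) and Trh (5.88 RPKM), and cocaine library 2 for Cartpt (53.7 RPKM), Gal (16.0 RPKM) and Trh (14.4 RPKM). These last 2 libraries had the highest hypothalamic marker sums of their groups, 1385 and 734 RPKM, and the part of such tissue in the values was not tested.

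In the PFC at 28 days saline library 4, with a striatal marker sum of 857 RPKM, stood apart for Tac1 (98.8 RPKM), Nts (6.98 RPKM) and Cartpt (10.3 RPKM). At 1 day Cartpt was at 2.42 RPKM in cocaine library 2 of the PFC. In the NAc the values were Tac1 at 322 RPKM in saline library 4 at 1 day, Tac2 at 12.0 RPKM in cocaine library 5 at 1 day, and Vip at 6.81 RPKM in cocaine library 3 at 28 days, which also had the highest cortical marker sum of its group, 285 RPKM.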

How the results depend on the processing

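Across 125 alternative fits of the cocaine comparisons and the interaction, members passed an adjusted p under 0.05 in 1 fit, which was not planned. In it DESeq2 on whole reads recovered from the VTA RPKM at 1 day called 2 members, Nts and Tac2, and gave Cartpt no p. There edgeR on the same reads gave Cartpt -3.40, with the saline library at 435 RPKM included, and the cause was not tested. With each library left out in turn the count of members called stayed at 0 in all 6 cocaine comparisons and the interaction, and ran from 5 to 7 for NAc against VTA, 6 to 6 for NAc against PFC and 5 to 7 for VTA against PFC. Saline libraries at 1 day, in place of those at 28 days, gave 8 members between VTA and PFC, and turned the sign of Cartpt (-1.43) and Tac2 (2.68) for NAc against VTA and of Tac2 (-3.09) for VTA against PFC. No shares of all genes are given for these alternative counts. Of 1831 member values under alternatives 29 passed the adjusted threshold where the reported value had not, 0 lost it and 4 reversed, counting a change of sign only where either unadjusted p was under 0.05, and 98 others changed sign with neither under 0.05. With the replicate block at 1 day the counts stayed at 0 in each region. The numbers were not taken to pair libraries, since not every same-numbered pair deviated together: 3 of 6 pairs in the NAc, 4 of 6 in the VTA and 0 of 6 in the PFC had a correlation over 0.1. Correlations ran from -0.56 to 0.70 in the NAc, -0.29 to 0.49 in the VTA and -0.20 to 0.10 in the PFC, with 2, 2 and 0 of 6 pairs best matched to their own number. No paired analysis was possible at 28 days or for the interaction because the numbers of the 28-day columns match none of the sample titles. In the VTA the 95% log2 intervals were wide for some members, such as Cartpt at 1 day (-1.95 to 3.38) and Tac2 at 28 days (-2.22 to 2.18). Several-fold differences of these could not be detected. Intervals were narrower for others, such as Cck (-0.78 to 0.72) and Tac1 (-0.42 to 1.16) at 1 day.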
